A study of Homo sapiens with 12 samples.

Results

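AAV9-AIPL1co was compared with AAV9-GFP, a vector with another transgene, so that the cells of both groups had been transduced. All 3 libraries of each vector entered, 6 of the 12 libraries of the series. The cells were ARPE-19, an established line of human retinal pigment epithelium, and all of them had been held for 120 h in 3 µM fenretinide, a synthetic retinoid used to turn them towards a neuron-like state. Both groups then received the same capsid, adeno-associated virus serotype 9, at 100000 vector genomes per cell: AAV9-AIPL1co carried a codon-optimized copy of AIPL1, AAV9-GFP the green fluorescent protein gene. The vectors were made from different plasmids and purified as separate preparations. Effects of AIPL1, of GFP, of the plasmid and of the preparation therefore cannot be told apart in this comparison. Non-transduced fenretinide-treated cells (2 libraries in the fit) and cells given the native sequence, AAV9-AIPL1wt (3 libraries), also entered the fit. The harvest after transduction is stated as 24 h and, elsewhere in the same study, as 18 h. A single cell line stands for the tissue. The study calls its replicates biological, but neither the labels nor the methods say whether they were separate cultures, so p-values measure only the spread between these libraries.

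AIPL1 is a co-chaperone of HSP90 that photoreceptors need to assemble their cGMP phosphodiesterase, and its loss causes Leber congenital amaurosis type 4. Retinal pigment epithelium does not normally use the gene. It is a pigmented layer that digests shed photoreceptor membrane in its lysosomes, handles the cholesterol and retinoids this releases, and rests outside the cell cycle in the eye, whereas the ARPE-19 line still divides in culture.

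Of the defining genes of retinal pigment epithelium, RPE65, TYR and DCT had 0 counts over the 6 libraries, BEST1 had 54 and RLBP1 102, while OTX2 had 3193, PAX6 4927 and MITF 1037. Of 16 photoreceptor markers, 5 were at 0, GNAT1 and GNGT1 among them, and 11 had fewer than 10 counts. Gene counts were 6869652 to 8369149 per AAV9-AIPL1co library and 7298515 to 8178494 per AAV9-GFP library, and replicates of a vector correlated at 0.987 to 0.992 on the log2 scale. The alignment reference held entries for the vectors. The codon-optimized AIPL1 entry had 11, 13 and 19 counts in AAV9-AIPL1co replicates 1 to 3 and 0 in each AAV9-GFP library, the GFP entry had 2, 1 and 4 counts in AAV9-GFP and 0 in each AAV9-AIPL1co library, so the entries matched the labels of the 6 libraries.

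Markers of other cell types were in part detected. Over the 6 libraries PTPRC of leukocytes, CDH5 of endothelium, and DCN and COL1A2 of fibroblasts had 1 count each, while the highest member was PDGFRB among fibroblast markers with 1715 counts, followed by FAP with 770 and COL1A1 with 664, CSF1R among leukocyte markers with 161, and ESAM among endothelial markers with 51. Of 8 endothelial markers 0 were at 0 counts and the summed level was 29.48 to 37.27 normalized counts with AAV9-AIPL1co against 14.4 to 15.18 with AAV9-GFP, and of 7 melanocyte markers 2 were at 0 and the sum was 33.51 to 41.92 against 18.89 to 23.66. Of 9 fibroblast markers 2 were at 0 and the sum was 541.7 to 604.8 against 459.6 to 482.9, of 11 leukocyte markers 6 were at 0 and the sum was 23.29 to 34.63 against 31.48 to 41.15, and of 16 photoreceptor markers the sum was 57.06 to 62.42 against 53.13 to 85.39. Of 7 markers of Müller glia and astrocytes 3 were at 0, and the sum, nearly all of it VIM and GLUL, was 15980 to 16300 against 19880 to 20740. The part of other cell types in the results was not tested.

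Of 62757 genes, 13896 had enough counts to be tested. A differentially expressed gene (DEG) had a Benjamini-Hochberg adjusted p under 0.005 in the edgeR quasi-likelihood test and a fold change of at least 3. There were 220 DEGs, 165 higher with AAV9-AIPL1co (1.19% of the genes tested) and 55 lower (0.396%). For single genes and members of gene lists the threshold was an adjusted p under 0.05 over all genes tested, in the same test, which 2239 genes passed as higher (16.1%) and 2061 as lower (14.8%), with a median size of 0.631 on the log2 scale. The groups did not overlap in 3448 genes that were higher (24.8%) and 3393 that were lower (24.4%), and in none of the 220 DEGs did they overlap. The fit left out non-transduced control replicate 1. With it kept, 80 genes higher and 26 lower were DEGs. Tested against a 3-fold change itself (glmTreat) 5 genes higher and 0 lower passed, so the fold of most DEGs was not shown to exceed 3. The median log2 fold change of all genes tested was -0.001. Values below are normalized counts, that is, counts scaled by the trimmed mean of M values (TMM) to a common library size, of AAV9-AIPL1co replicates 1, 2 and 3 against those of AAV9-GFP, and standard errors (SE) are those of the fit. Of the DEGs, 112 of those higher and 43 of those lower coded for protein, and 23 had no gene symbol and are not named. Counts of list members that rose or fell are to be read beside the 16.1% and 14.8% of all genes tested. Beside a count of members, names in brackets were chosen after their values were seen. Most genes given with values were picked by their fold change in this contrast or by groups that do not overlap. That their groups lie apart therefore follows at least in part from the choice.

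**Figure D1:**
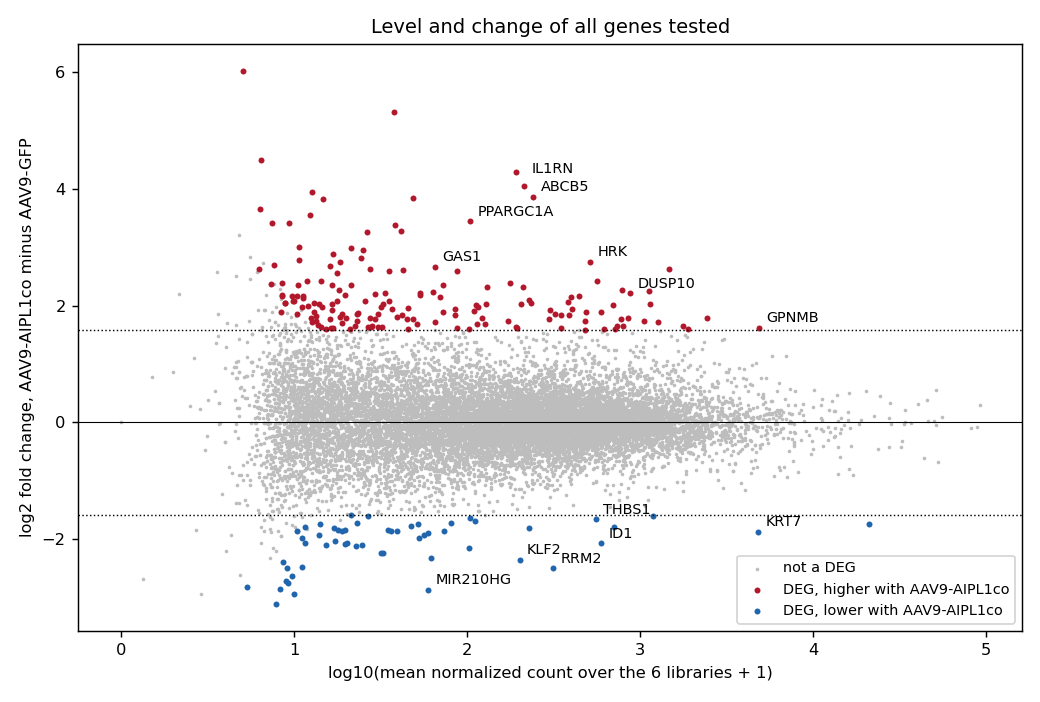
Each point is a gene, placed by its mean normalized count over the 6 libraries (horizontal, log10 scale) and its log2 fold change between AAV9-AIPL1co and AAV9-GFP (vertical), with dotted lines at a 3-fold change. The 165 red DEGs lie above the upper line and the 55 blue ones below the lower line.

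The largest changes included genes of inflammation control, energy metabolism and drug transport. IL1RN, which encodes the secreted antagonist of the interleukin-1 receptor (chr2:113099315-113134016 in GRCh38, Gencode 44), had 387, 447 and 372 normalized counts with AAV9-AIPL1co and 24.7, 35.1 and 11.5 with AAV9-GFP. ABCB5, an efflux transporter of the ABC family (chr7:20615667-20777038), had 452, 474 and 418 against 43.2, 22.8 and 26.2. PPARGC1A, which encodes the transcriptional coactivator PGC-1α (chr4:23755041-23904089), had 174, 186 and 204 against 17.5, 14.2 and 19.9. In each of these genes the lowest AAV9-AIPL1co library was more than 8 times the highest AAV9-GFP library. The log2 fold changes were 4.05 ± 0.23 (SE, adjusted p = 2.68e-09), 3.87 ± 0.20 (adjusted p = 1.12e-09) and 3.45 ± 0.21 (adjusted p = 5.98e-09). GAS1, a membrane-anchored Hedgehog co-receptor (chr9:86944362-86947506), had 104, 119 and 111 against 12.3, 20.9 and 18.9 (log2 fold change 2.67 ± 0.21 (SE), adjusted p = 8.96e-08). These genes, and ANGPTL2, MAF, RRM2, UAP1L1, UCN and WHRN, were already singled out by the study on the same libraries, so their directions are not independent evidence.

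Other strongly raised genes code for signaling and stress proteins. HRK, a BH3-only protein that promotes apoptosis, had 953, 895 and 828 with AAV9-AIPL1co and 155, 136 and 106 with AAV9-GFP (log2 fold change 2.75 ± 0.19 (SE), adjusted p = 1.94e-08). DUSP10, a phosphatase that switches off the p38 and JNK kinases, had 1348, 1488 and 1478 against 335, 305 and 289.6 (log2 fold change 2.21 ± 0.16 (SE), adjusted p = 2.33e-08). KCP, a secreted chordin-like regulator of BMP signaling, had 1127, 977 and 736 against 199, 192 and 139.5 (log2 fold change 2.42 ± 0.21 (SE), adjusted p = 1.41e-07). These genes were picked by a rule that required groups that do not overlap, so the gap between the vectors follows from the choice. The spread within each vector was small beside that gap. SLC5A3, the sodium-dependent importer of the osmolyte myo-inositol, rose too, by 2.26 ± 0.34 on the log2 scale, with a wide spread over its AAV9-AIPL1co libraries (778, 1353 and 1756). NDRG4 rose by 2.25 ± 0.15, SHC3, a neuronal adaptor of receptor kinases, by 2.23 ± 0.27, KLHL24, an adaptor for the ubiquitination of keratins, by 2.32 ± 0.23, PNLIPRP3, of the pancreatic lipase family, by 2.32 ± 0.23, PKD1L2, a polycystin relative, by 2.59 ± 0.21, and TCP11L2 by 2.36 ± 0.21.

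The largest fold change among the genes with a symbol and a mean over 50 was that of IGFL2-AS1, a long non-coding RNA (chr19:46189029-46203160), with 217, 336 and 536 against 18.5, 19.9 and 16.8 (log2 fold change 4.28 ± 0.38 (SE), adjusted p = 2.50e-07). The pseudogene IGFL1P1 lies within it on the other strand and had 52.2, 73.2 and 90.5 against 2.06, 2.85 and 0. The libraries carried no strand information, with 49.9 to 50.2% of counts on the forward strand, so reads of the overlapping genes at this locus cannot be told apart. The same limit holds for other genes named here whose exons overlap those of a neighbor in Gencode 44, among them KCP (ATP6V1F, ATP6V1FNB), SLC5A3 (MRPS6), TCP11L2 (CKAP4), TGM2 (RPRD1B), KRT7 (KRT7-AS), NPC1 (RMC1), CRELD2 (ALG12), ESRRA (TRMT112), FZD4 (PRSS23), WNT2B (ST7L), AMDHD2 (CEMP1), CERS1 (GDF1), HSPG2 (LDLRAD2), TPM1 (TPM1-AS), and KRT8 with KRT18.

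Among the genes that fell, several belong to BMP and TGF-β signaling, to hypoxia and to nucleotide supply. MIR210HG, the host transcript of microRNA miR-210 (chr11:565657-568457), had 9.32, 16.2 and 16.8 with AAV9-AIPL1co and 123, 78.7 and 106 with AAV9-GFP (log2 fold change -2.87 ± 0.29 (SE), adjusted p = 1.06e-06). RRM2, the regulated subunit of ribonucleotide reductase (chr2:10120698-10211725), had 106, 79.9 and 96.1 against 566, 373 and 657 (log2 fold change -2.50 ± 0.22 (SE), adjusted p = 1.69e-07). KLF2, a zinc finger transcription factor (chr19:16324826-16328685), had 68.01, 53.3 and 75.95 against 292, 342 and 370.4 (log2 fold change -2.35 ± 0.15 (SE), adjusted p = 1.23e-08). The groups of all 3 genes lay apart, with AAV9-GFP replicate 2 the lowest of its group for MIR210HG and RRM2. TXNIP, an inhibitor of thioredoxin and of glucose uptake, had 31.7, 14.3 and 13.4 against 153, 54.1 and 98.6, a log2 fold change of -2.33 ± 0.35 (adjusted p = 6.47e-05). KRT7, a keratin of simple epithelia, had 2266, 1841 and 2061 against 8599, 6074 and 7973 (log2 fold change -1.88 ± 0.13 (SE), adjusted p = 1.94e-08). NPPB, the precursor of a natriuretic peptide, changed by -1.82 ± 0.20 and EXO1, a DNA exonuclease of repair, by -1.86 ± 0.25. TGM2, a protein cross-linking enzyme induced by retinoids, changed by -1.79 ± 0.21, AFAP1L2 by -1.93 ± 0.20 and PCYOX1L by -1.75 ± 0.21. All were lower in every AAV9-AIPL1co library than in any AAV9-GFP library, as the rule that picked them required.

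A mature product of this locus, hsa-miR-210-3p, is shown because MIR210HG had the largest fall among the DEGs with a symbol and a mean over 50. The other, hsa-miR-210-5p (chr11:568150-568171), is not shown. Neither microRNA was measured here, since the libraries held poly(A) RNA. The RefSeq sequence of hsa-miR-210-3p (GRCh38.p14, chr11:568112-568133, minus strand) lies within MIR210HG, and capitals mark the seed, bases 2 to 8.
hsa-miR-210-3p: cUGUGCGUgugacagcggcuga

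**Figure D2:**
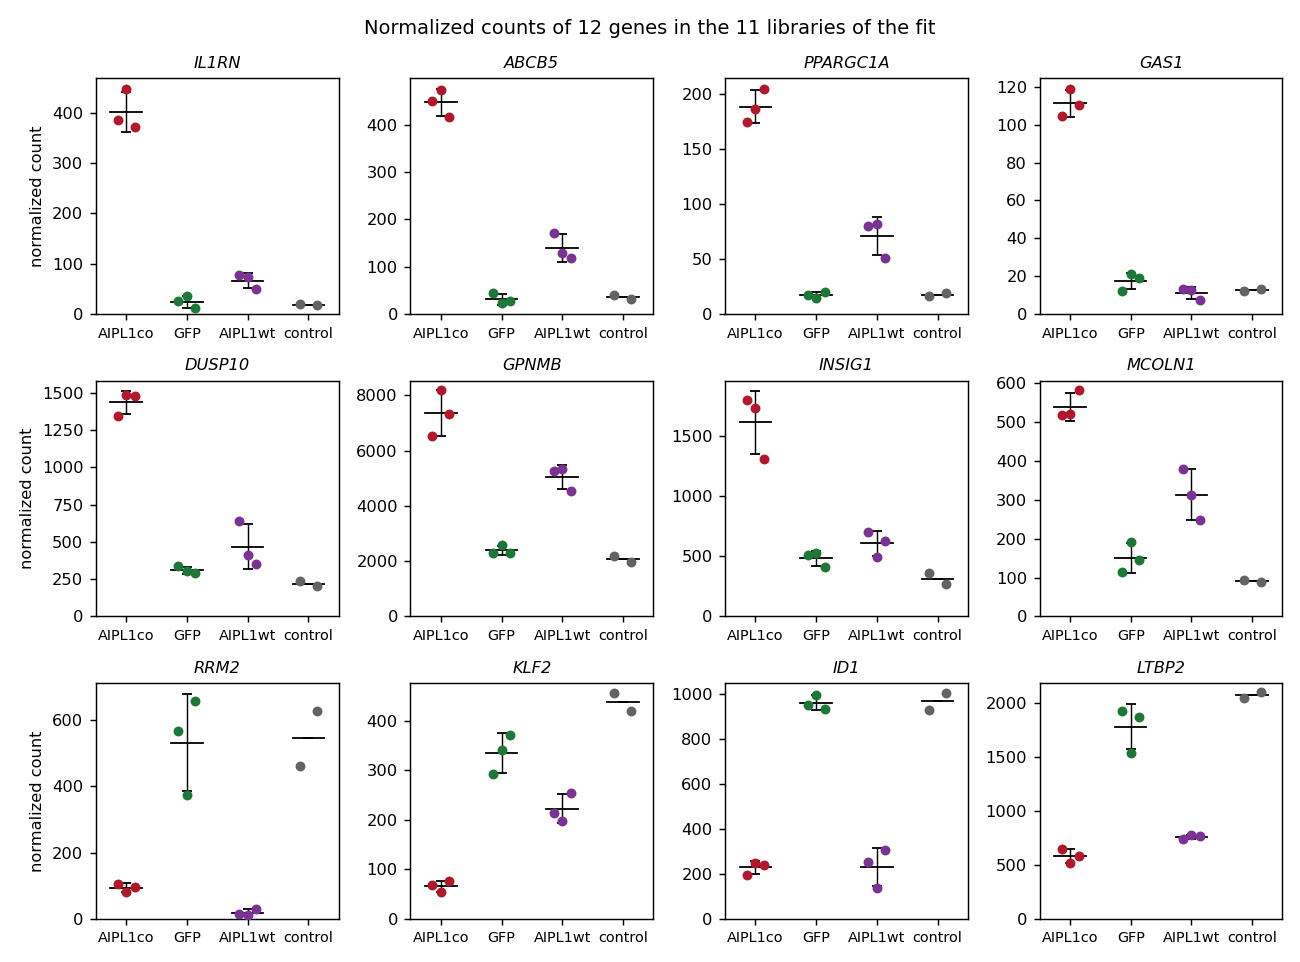
Normalized counts (vertical axes, from 0) of 12 genes in each of the 11 libraries of the fit, by group (horizontal axes), with AAV9-AIPL1co, AAV9-GFP and AAV9-AIPL1wt in 3 libraries each and the non-transduced control in 2. Horizontal bars are means and error bars SDs, none being drawn for the control. In all 12 genes the AAV9-AIPL1co points lie apart from the AAV9-GFP points. The genes are DEGs of this contrast, so this split follows from the choice.

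Genes of cell division fell with AAV9-AIPL1co. Cells duplicate their DNA with a helicase (CDC45, MCM proteins) and polymerases fed by deoxynucleotides, then segregate the copies on a spindle built from kinesins and kinetochore proteins. Of 63 mitosis genes tested, 42 fell and 0 rose, against 14.8% of all genes tested that fell, and the median log2 fold change was -0.74. Of 57 genes of DNA replication 27 fell and 1 rose (GINS3; median -0.37), of 33 of recombination and checkpoints 14 fell and 0 rose (median -0.32), and of 16 of deoxynucleotide synthesis 8 fell and 0 rose (median -0.27). In bulk RNA, fewer dividing cells and less of each transcript per cell cannot be told apart.

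SPC25, a kinetochore protein, had 7.45, 8.56 and 5.58 normalized counts with AAV9-AIPL1co and 30.9, 21.8 and 27.3 with AAV9-GFP (log2 fold change -1.85 ± 0.35 (SE), adjusted p = 5.60e-04). KIF20A, a kinesin of cytokinesis, had 23.3, 35.2 and 45.8 against 91.6, 89.2 and 114, and KIF4A, a kinesin that binds chromosomes, 24.2, 21.9 and 29.04 against 61.7, 55.98 and 96.5. The groups lay apart in these genes, with log2 fold changes of -1.51 ± 0.25 (adjusted p = 1.62e-04) and -1.51 ± 0.25 (adjusted p = 2.09e-04) for the kinesins. CDC45 had 72.7, 47.6 and 67.02 against 183, 125 and 191 (log2 fold change -1.41 ± 0.20 (SE), adjusted p = 4.03e-05), and MCM6 163, 184 and 193 against 427, 305 and 453 (log2 fold change -1.13 ± 0.18 (SE), adjusted p = 1.42e-04). Again AAV9-GFP replicate 2 was the lowest of its group. TK1, thymidine kinase of S phase, had a log2 fold change of -1.15 ± 0.18, RRM1, the large subunit of ribonucleotide reductase, of -1.08 ± 0.14, BARD1, the partner of BRCA1, of -1.35 ± 0.22, and FANCD2, of the Fanconi pathway, of -1.27 ± 0.25. Of 32 E2F, RB and cell cycle regulators tested, 9 fell, 3 rose and 20 missed the threshold (median -0.19), and 2 fell with control replicate 1 kept in the fit. Among those that fell, E2F2, a transcription factor that drives S phase genes, had 25.2, 16.2 and 21.2 against 75.1, 57.9 and 81.8 (log2 fold change -1.77 ± 0.28 (SE), adjusted p = 1.01e-04), and MYBL2, which drives mitotic genes, 111, 79.9 and 107 against 257, 225 and 303 (log2 fold change -1.40 ± 0.20 (SE), adjusted p = 4.77e-05).

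MCM6 (adjusted p = 0.0759), TK1 (adjusted p = 0.0677) and MYBL2 (adjusted p = 0.102) missed the threshold with control replicate 1 kept in the fit. In that fit 21 mitosis genes, 3 of DNA replication, 3 of recombination and 2 of deoxynucleotide synthesis passed as lower. Without AAV9-GFP replicate 3, 24 mitosis genes, 17 of DNA replication, 6 of recombination and 5 of deoxynucleotide synthesis passed as lower, and 8 of recombination without AAV9-AIPL1co replicate 2. The replication gene that rose passed in only 1 of the 6 fits with a library left out, the one without AAV9-GFP replicate 1.

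Some transcripts of replication-dependent histones rose. Their mRNAs end in a stem loop rather than a poly(A) tail, so poly(A) selection captures few of them, and 22 of 64 had 0 counts in the 6 libraries. Of the 16 tested, 6 rose, 0 fell and 10 missed the threshold, with a median of 0.75 (16.1% of all genes tested rose). H2BC5 had 124, 197 and 192 with AAV9-AIPL1co and 47.3, 46.5 and 41.97 with AAV9-GFP (log2 fold change 1.91 ± 0.22 (SE), adjusted p = 4.76e-06), and H2AC6 211, 297 and 286 against 72.02, 83.5 and 80.8 (log2 fold change 1.74 ± 0.17 (SE), adjusted p = 6.65e-07). Both groups lay apart, and the native vector stood higher still, at means of 315 and 646 (AAV9-AIPL1co minus AAV9-AIPL1wt -0.90 ± 0.18, adjusted p = 8.28e-04, and -1.29 ± 0.15, adjusted p = 3.01e-06; 41.5% of all genes tested differed between these vectors). Histone genes have near-identical copies, so their reads may be split or lost as multi-mapping, which took up 17.87 ± 2.08% of reads with AAV9-AIPL1co and 16.63 ± 1.1% with AAV9-GFP (SD, n = 3); its part in the result was not tested.

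Genes of cholesterol synthesis and uptake rose. When sterol is scarce in the endoplasmic reticulum, the transcription factor SREBP2 is released and switches on the mevalonate pathway and the LDL receptor, with INSIG1 as its brake. Of 31 genes tested, 20 rose and 1 fell, with a median of 0.68. INSIG1 had 1798, 1729 and 1310.2 with AAV9-AIPL1co and 510.3, 528 and 413 with AAV9-GFP (log2 fold change 1.74 ± 0.15 (SE), adjusted p = 1.28e-07). HSD17B7, an enzyme late in the pathway, had 166, 145 and 113 against 51.4, 56.9 and 45.1 (log2 fold change 1.46 ± 0.25 (SE), adjusted p = 2.08e-04), and HMGCS1, which makes the HMG-CoA that feeds it, 1504, 1363 and 945 against 613, 572 and 461 (log2 fold change 1.21 ± 0.16 (SE), adjusted p = 2.16e-05). For these genes AAV9-AIPL1co replicate 3 was the lowest of its group and still above every AAV9-GFP library. NPC1, which moves cholesterol out of lysosomes, had 3392, 3390.3 and 3235 against 1355, 1357 and 1165 (log2 fold change 1.37 ± 0.11 (SE), adjusted p = 8.67e-08). The member that fell was ABCA1, the exporter of cholesterol (log2 fold change -0.60 ± 0.12), named after its value was seen; 2 members fell without AAV9-AIPL1co replicate 1. HMGCS1 (adjusted p = 0.122) missed the threshold with control replicate 1 kept in the fit. In that fit 7 sterol genes passed as higher. Of 26 genes of fatty acid synthesis and desaturation 7 rose and 4 fell (lower ELOVL2, ELOVL5, ELOVL1 and GPAM; median 0.05), and without AAV9-AIPL1co replicate 1 these were 4 and 2, with 2 falling as well without AAV9-GFP replicate 1 or 3.

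Of 51 genes of the lysosome and of autophagy tested, 28 rose and 3 fell, with a median of 0.38. Lysosomes digest proteins, glycans and lipids with acid hydrolases, a proton pump holds them acid, and MCOLN1 releases their calcium. MCOLN1 had 518, 521 and 582 with AAV9-AIPL1co and 113, 191 and 146 with AAV9-GFP (log2 fold change 1.84 ± 0.17 (SE), adjusted p = 2.58e-07). CTSK, the protease cathepsin K, had 3523, 4097 and 3639 against 1231, 1015 and 1019 (log2 fold change 1.79 ± 0.12 (SE), adjusted p = 1.94e-08), and NEU1, the lysosomal sialidase, 2038, 2008 and 1796 against 562, 703 and 498 (log2 fold change 1.73 ± 0.14 (SE), adjusted p = 8.67e-08). The gap between the groups was several times the spread within them in each. GRN, the precursor of progranulin, was among the abundant members and had 10216, 9504 and 8759 against 4570.0, 4470.5 and 3989 (log2 fold change 1.13 ± 0.11 (SE), adjusted p = 5.02e-07). GPNMB, a glycoprotein of lysosomes and melanosomes, was the most abundant of all DEGs that rose, with 6535, 8216 and 7326 against 2291, 2586 and 2307 (log2 fold change 1.62 ± 0.10 (SE), adjusted p = 5.26e-09). The members that fell, named after their values were seen, were CTSO, a cathepsin (-0.59 ± 0.20), ATG7, which activates autophagy conjugation (-0.34 ± 0.13), and TFEB, a transcription factor of lysosomal genes (-0.63 ± 0.17). The number of members of the list that fell was 0 without AAV9-AIPL1co replicate 2, and it was 1 without AAV9-GFP replicate 1, without AAV9-GFP replicate 3 or with control replicate 1 kept in the fit.

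Short motifs were searched in the promoters of members that moved together, from 250 bases before to 50 after the RefSeq start (GRCh38.p14), on both strands, and promoters were found for 10487 of the tested genes. TCACGTGA, which reads alike on both strands and contains the E-box CACGTG, was in 4 of 18 promoters of the lysosome and autophagy genes that rose, in 2 of 21 of the other tested members, and in 0.98% of all 35116 promoters (1.97% of those of tested genes). CACGTG alone was in 7 of 18, in 2 of 21, in 7.26% of all and in 10.1% of those tested. TTTNGCGC, the E2F type, was in 8 of 22 promoters of replication genes that fell, in 8 of 28 of the others, in 1.79% of all and in 3.08% of those tested. TTTGAA, a core element of mitotic promoters, was in 28 of 38 promoters of mitosis genes that fell, in 9 of 17 of the others, in 15.2% of all and in 9.5% of those tested. TCACNCCAC, the sterol type, was in 1 of 14 promoters of sterol genes that rose, in 0 of 11 of the others, in 1.13% of all and in 1.13% of those tested. The interferon type, GAAA and again GAAA after any 2 bases, was in 8 of 10 promoters of interferon-stimulated genes that fell, in 17 of 30 of the others, in 3.57% of all and in 2.71% of those tested. ACGTG, the hypoxia type, which overlaps the E-box above, was in 9 of 15 promoters of hypoxia and glycolysis genes that fell, in 7 of 20 of the others, in 21.4% of all and in 26.7% of those tested. TTTNGCGC was also in 1 of 7 promoters of deoxynucleotide synthesis genes that fell and in 0 of 7 of the others. A match is a description of letters, not a site.

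The windows below, each 30 bases long, lie upstream of the start and are written 5′ to 3′ on the strand of the gene. Capitals show TCACGTGA (lysosome), TTTNGCGC (replication) or TTTGAA (mitosis). For each motif 3 members are shown, those of largest fold change among the members considered for a window. Not every member with the motif was considered, so a member left out may have a larger change. The first trio belongs to the lysosome, the next to replication and the last to mitosis.
MCOLN1 (chr19:7522571-7522600, plus strand): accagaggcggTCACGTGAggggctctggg
CTSA (chr20:45891298-45891327, plus strand): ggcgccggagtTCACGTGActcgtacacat
LAMP1 (chr13:113297199-113297228, plus strand): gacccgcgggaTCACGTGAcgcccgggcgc
MCM6 (chr2:135876577-135876606, minus strand): agggctttgcaTTTGGCGCgaaatcccttt
POLE2 (chr14:49688277-49688306, minus strand): tcttaacagggTTTAGCGCcacgcgggcca
POLA1 (chrX:24693770-24693799, plus strand): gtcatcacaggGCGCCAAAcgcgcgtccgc
KIF15 (chr3:44761747-44761776, plus strand): ccaagcgccaaaTTCAAAtttgcggccatc
KIF4A (chrX:70290058-70290087, plus strand): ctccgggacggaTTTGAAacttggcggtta
MKI67 (chr10:128126453-128126482, minus strand): ttagcgccagaaTTTGAAtcttcgttttcg

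In POLA1 and KIF15 the capitals are the motif read on the other strand. Among the genes of these windows, chosen after their values were seen, the log2 fold changes were 0.93 ± 0.11 for CTSA, a lysosomal carboxypeptidase, 0.63 ± 0.08 for LAMP1, a protein of the lysosomal membrane, -0.82 ± 0.21 for POLE2 and -0.70 ± 0.18 for POLA1, subunits of DNA polymerases, -1.54 ± 0.39 for KIF15, a spindle kinesin, and -1.46 ± 0.24 for MKI67, which coats mitotic chromosomes. KIF15 missed the threshold without AAV9-GFP replicate 3 (adjusted p = 0.0502).

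In BMP and TGF-β signaling, ligands bind receptor kinases that phosphorylate SMAD proteins, which switch on ID genes (BMP) or matrix genes (TGF-β). Of 32 members tested, 13 fell (40.6%) and 7 rose (21.9%), beside 14.8% and 16.1% of all genes tested, with a median of -0.18. The targets ID1 and ID4, inhibitors of helix-loop-helix transcription factors, fell. ID1 had 194, 250.1 and 240.1 with AAV9-AIPL1co and 949.6, 996 and 933 with AAV9-GFP (log2 fold change -2.07 ± 0.18 (SE), adjusted p = 1.70e-07), and ID4 had 34.5, 40.9 and 35.7 against 136, 194 and 169 (log2 fold change -2.16 ± 0.18 (SE), adjusted p = 9.28e-08). In either gene the lowest AAV9-GFP library was more than 3 times the highest AAV9-AIPL1co library. SMAD9, a SMAD of BMP receptors, had 20.5, 19.97 and 22.3 against 78.2, 65.5 and 105 (log2 fold change -1.98 ± 0.22 (SE), adjusted p = 2.67e-06).

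LTBP2, a matrix protein of the latent TGF-β binding family, had 648, 517 and 584 against 1921, 1536 and 1869.7 (log2 fold change -1.61 ± 0.10 (SE), adjusted p = 9.77e-09). Upstream members that rose were BMPR1B, a BMP receptor, with 35.4, 49.5 and 54.7 against 11.3, 12.3 and 14.7 (log2 fold change 1.85 ± 0.27 (SE), adjusted p = 4.83e-05), and, named after their values were seen, BMP2 (1.61 ± 0.14), BMP4 (0.70 ± 0.22), the BMP antagonist NOG (0.98 ± 0.25) and the decoy receptor BAMBI (1.41 ± 0.13). Ligands, a receptor and antagonists were thus among those that rose, and ID1 and ID4 among those that fell. This grouping was made after the values were seen. Without AAV9-AIPL1co replicate 3, 4 members passed as higher.

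Genes of the contractile cytoskeleton and targets of YAP and TEAD, transcription factors that respond to cell tension, fell in part. Of 26 actin and contractile genes 13 fell and 1 rose (median -0.29), and of 28 YAP and TEAD targets 13 fell and 2 rose (FOXF2 and FJX1; median -0.26). FLNC, a filamin that cross-links actin, had 11658, 10759 and 12823 with AAV9-AIPL1co and 22611, 21369 and 21922 with AAV9-GFP (log2 fold change -0.90 ± 0.08 (SE), adjusted p = 1.61e-07). TPM1, a tropomyosin, had 3155, 3329 and 3410.1 against 5849, 5051 and 6120.2 (log2 fold change -0.78 ± 0.11 (SE), adjusted p = 2.31e-05), and CCN2, a secreted matricellular protein, 357, 338 and 397 against 619, 806 and 785 (log2 fold change -1.02 ± 0.14 (SE), adjusted p = 2.24e-05). In each, every AAV9-AIPL1co library lay below every AAV9-GFP library. The member that rose, MYL4, an embryonic myosin light chain, had 9.32, 6.66 and 11.2 against 3.09, 0 and 1.05, close to the lower limit of detection, and did not pass without AAV9-AIPL1co replicate 3. AXL, a receptor kinase, changed by -0.84 ± 0.09, IGFBP3, a binder of insulin-like growth factors, by -1.06 ± 0.15, CNN2, calponin, by -0.75 ± 0.08, and RBMS3 by -1.33 ± 0.21. IGFBP3 (adjusted p = 0.183) and FLNC (adjusted p = 0.0523) missed the threshold with control replicate 1 kept in the fit. In that fit 7 actin and contractile genes passed as lower.

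Matrix and secreted factors held members that fell and members that rose, and their shares can be set against 14.8% lower and 16.1% higher of all genes tested. THBS1, the antiangiogenic thrombospondin, had 231, 246 and 321 with AAV9-AIPL1co and 806, 727 and 977 with AAV9-GFP (log2 fold change -1.66 ± 0.23 (SE), adjusted p = 2.71e-05), and HSPG2, the basement membrane proteoglycan perlecan, 941, 762 and 861 against 2010.3, 1786 and 1857 (log2 fold change -1.14 ± 0.09 (SE), adjusted p = 1.06e-07). ANGPTL2, an angiopoietin-like secreted protein, had 621, 646 and 646 against 152, 176 and 170.0 (log2 fold change 1.94 ± 0.14 (SE), adjusted p = 4.00e-08). THBS1 and HSPG2 were thus lower and ANGPTL2 higher in all 3 libraries. Of 20 angiogenic and antiangiogenic factors 7 fell (35%) and 3 rose (15%; ANGPTL2, VEGFB and NRP2; median -0.12), and FGF5, a growth factor, was among those that fell (-1.11 ± 0.11). Of 34 integrins, laminins and matrix glycoproteins 9 fell (26.5%) and 5 rose (14.7%; ITGB8, NID2, ITGB3, ITGAV and ITGB5; median 0.08), and of 36 matrix proteases and inhibitors 9 fell (25%) and 7 rose (19.4%; median 0.02), with PLAT, tissue plasminogen activator, at 44.7, 38.99 and 53.6 against 134, 111 and 115 (log2 fold change -1.40 ± 0.18 (SE), adjusted p = 1.72e-05). COL1A1, a chain of type I collagen and a fibroblast marker, had 195, 167 and 109 against 59.7, 71.2 and 50.4 (log2 fold change 1.38 ± 0.21 (SE), adjusted p = 6.57e-05). COL1A1 (adjusted p = 0.0742) missed the threshold with control replicate 1 kept in the fit. Of 23 collagens tested, 4 rose (17.4%) and 5 fell (21.7%), with a median of 0.02. Those that rose were 2 without AAV9-AIPL1co replicate 2 or 3 or AAV9-GFP replicate 1 or 3, and 1 with control replicate 1 kept. Among the other fibroblast markers FAP, a cell surface protease, rose as well (0.57 ± 0.15, adjusted p = 0.00789, and 0.24 with control replicate 1 kept in the fit), PDGFRB, a growth factor receptor, missed the threshold (-0.16 ± 0.11, adjusted p = 0.296), LUM and THY1 were at 0 counts, and COL1A2, the partner chain of COL1A1, had 1 count over the 6 libraries.

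In the hypoxia response, HIF transcription factors switch on glycolytic enzymes, lactate export and PDK1, which keeps pyruvate out of mitochondria. Of 39 members tested, 15 fell and 2 rose (STC2 and SLC2A1), with a median of -0.22. PDK1 had 52.2, 85.6 and 50.3 with AAV9-AIPL1co and 209, 143 and 215 with AAV9-GFP (log2 fold change -1.58 ± 0.21 (SE), adjusted p = 1.71e-05). P4HA1, which hydroxylates collagen, had 192, 189 and 193 against 391, 354 and 463 (log2 fold change -1.07 ± 0.14 (SE), adjusted p = 1.81e-05), and LDHA, lactate dehydrogenase A, 3883, 4927 and 5759 against 9366, 8589.9 and 9887 (log2 fold change -0.93 ± 0.12 (SE), adjusted p = 1.71e-05). The groups lay apart in all 3, and MIR210HG, described above, is a HIF target too. LDHA (adjusted p = 0.0784) missed the threshold with control replicate 1 kept in the fit. In that fit 4 members of the list passed as lower. The subunits of oxidative phosphorylation encoded in the nucleus had a median of 0.01, and of 49 tested 2 rose (NDUFA8 and ATP5PO) and 4 fell (UQCRC2, NDUFB3, ATP5MC1 and NDUFV1). Of these, 0 rose and 1 fell without AAV9-AIPL1co replicate 2 or 3, 0 rose and 2 fell without AAV9-GFP replicate 1 or 3, 1 rose and 2 fell without AAV9-GFP replicate 2, and 1 rose without AAV9-AIPL1co replicate 1. PPARGC1A, a coactivator of mitochondrial genes, and its partner PPARA, a nuclear receptor of fatty acid use (285, 281 and 309 against 84.4, 120.5 and 86.04, log2 fold change 1.58 ± 0.14 (SE), adjusted p = 2.67e-07), rose, as did ESRRA, a nuclear receptor of mitochondrial genes (0.79 ± 0.09). Of 26 PGC-1 coactivators, partners and mitochondrial regulators tested, 5 rose (19.2%) and 2 fell (7.69%), TFB1M among the latter. The shares of all genes tested were 16.1% and 14.8%, and the median of the list was 0.14.

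Chaperones of the endoplasmic reticulum fold secreted proteins; 13 of 26 fell and 0 rose (1 without AAV9-AIPL1co replicate 3), with a median of -0.30. CRELD2, a secreted folding factor, had 266, 205 and 189.9 with AAV9-AIPL1co and 591, 615 and 562 with AAV9-GFP (log2 fold change -1.41 ± 0.16 (SE), adjusted p = 2.65e-06), and PDIA4, a disulfide isomerase, 1337, 1278 and 1345 against 2276, 2622 and 2168 (log2 fold change -0.84 ± 0.12 (SE), adjusted p = 6.58e-05). Every AAV9-GFP library lay above every AAV9-AIPL1co library in both, and 8 chaperones passed as lower with control replicate 1 kept. In the amino acid response driven by ATF4, 9 of 36 rose (25%) and 5 fell (13.9%, DDIT4, ATF5, EPRS1, MTHFD2 and SLC7A11), with a median of 0.09. The shares of all genes tested were 16.1% and 14.8%. SLC3A2, the heavy chain of amino acid importers, had 8519, 7724 and 7567 against 3995, 3924 and 2976 (log2 fold change 1.13 ± 0.14 (SE), adjusted p = 1.23e-05). Among heat shock proteins and HSP90 co-chaperones, the group AIPL1 belongs to, 8 of 30 fell and 3 rose (HSPA2, HSPH1 and FKBP4; median -0.09). FKBP5, an HSP90 co-chaperone, had 58.7, 67.5 and 55.8 against 116, 93.9 and 163 (log2 fold change -1.02 ± 0.22 (SE), adjusted p = 0.00164), and HSPB1, a small heat shock protein, 6014, 4577 and 3469 against 8751, 8097 and 7035 (log2 fold change -0.76 ± 0.18 (SE), adjusted p = 0.00302). Counts in these lists moved with single libraries: without AAV9-GFP replicate 2 or 3, 5 members of the ATF4 list rose, without AAV9-AIPL1co replicate 2 or 3 or AAV9-GFP replicate 1 or 3, 3 of them fell, and the heat shock members that rose were 1 without AAV9-AIPL1co replicate 2, 0 without AAV9-GFP replicate 1 or 3 and 5 without AAV9-GFP replicate 2.

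Cells switch on interferon-stimulated genes when they sense viral nucleic acid. Of 53 tested, 14 fell and 5 rose (HERC5, IFIT3, STAT2, IFIT1 and TRIM25), against 14.8% and 16.1% of all genes, with a median of -0.26. SAMD9L, a restriction factor that blocks translation, had 27.02, 25.7 and 21.2 with AAV9-AIPL1co and 108, 90.1 and 79.7 with AAV9-GFP (log2 fold change -1.90 ± 0.23 (SE), adjusted p = 6.09e-06). IFI44 had 43.8, 24.7 and 35.7 against 92.6, 78.7 and 80.8 (log2 fold change -1.27 ± 0.19 (SE), adjusted p = 6.47e-05), and HERC5, the ligase that attaches ISG15, went the other way with 23.3, 31.4 and 29.04 against 7.20, 9.49 and 12.6 (log2 fold change 1.50 ± 0.30 (SE), adjusted p = 9.82e-04). All 3 had groups that lay apart, at low counts. In AAV9-AIPL1wt the means were 120.0 for SAMD9L, 319.5 for IFI44 and 36.96 for HERC5, and in the non-transduced control 174, 128 and 10.4. HERC5 (adjusted p = 0.0825) missed the threshold with control replicate 1 kept in the fit. Without AAV9-AIPL1co replicate 3, AAV9-GFP replicate 1 or AAV9-GFP replicate 3, 9 members passed as lower, and 9 as well with control replicate 1 kept.

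NF-κB, a transcription factor of inflammation, is held in the cytosol by inhibitors that it induces itself. Of 22 of its components and feedback genes 8 rose (36.4%) and 3 fell (13.6%, BIRC3, BIRC2 and TNIP1), with a median of 0.16. Over all genes tested, 16.1% rose and 14.8% fell. IER3, an early response gene that restrains NF-κB, had 1660.2, 1651 and 1293 with AAV9-AIPL1co and 583, 617 and 540.4 with AAV9-GFP (log2 fold change 1.40 ± 0.12 (SE), adjusted p = 1.18e-07), and CYLD, a deubiquitinase that restrains it, 1087, 1281 and 1269 against 639, 744 and 710.3 (log2 fold change 0.80 ± 0.10 (SE), adjusted p = 1.08e-05). BIRC3, an inhibitor of apoptosis and an NF-κB target, fell (38.2, 50.4 and 36.9 against 112, 79.7 and 104, log2 fold change -1.23 ± 0.19 (SE), adjusted p = 1.19e-04). In the interleukin-1 family 2 of 9 genes tested rose and 1 fell: IL1RN, IL1B, the agonist cytokine, with 640.0, 812 and 769.6 against 333, 586 and 350.4 (log2 fold change 0.80 ± 0.18 (SE), adjusted p = 0.00222), and IL1R1, the signaling receptor, with 33.5, 26.6 and 29.04 against 68.9, 60.7 and 72.4 (log2 fold change -1.17 ± 0.20 (SE), adjusted p = 2.82e-04). The antagonist and the agonist were thus higher and the receptor lower. CSF1, the macrophage growth factor, had 4871, 4411 and 3984 against 1814, 1770.4 and 1362 (log2 fold change 1.42 ± 0.14 (SE), adjusted p = 7.53e-07). IER3 (adjusted p = 0.0618), BIRC3 (adjusted p = 0.0707) and IL1B (adjusted p = 0.52) missed the threshold with control replicate 1 kept in the fit.

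Immediate early genes are switched on within minutes of a growth or stress signal by ERK and other kinases, and feedback genes of ERK were listed with them. Of the 34 tested, 15 were higher (44.1%) and 4 lower (11.8%, KLF2, KLF10, SPRY4 and SPRED3), with a median of 0.33. Over all genes tested, 16.1% were higher and 14.8% lower. The transcription factor EGR1 had 44.7, 19.97 and 13.4 with AAV9-AIPL1co and 2.06, 6.64 and 3.15 with AAV9-GFP (log2 fold change 2.68 ± 0.54 (SE), adjusted p = 0.00109), EGR2 19.6, 20.9 and 22.3 against 2.06, 2.85 and 0 (log2 fold change 3.54 ± 0.49 (SE), adjusted p = 2.93e-05), and FOS, a subunit of AP-1, 43.8, 40.9 and 17.9 against 1.03, 11.4 and 7.34 (log2 fold change 2.35 ± 0.45 (SE), adjusted p = 6.69e-04). The levels were low, and the AAV9-AIPL1co libraries of EGR1 and FOS differed from each other by more than 2-fold while staying above all AAV9-GFP libraries. KLF2 was the member with the largest fall. EGR1 (adjusted p = 0.408) and FOS (adjusted p = 0.357) missed the threshold with control replicate 1 kept in the fit. In that fit 8 members of this list passed as higher. Of the ligands and receptors of the EGF family, which feed the ERK pathway, 5 of 14 fell (35.7%, TGFA, ERBB4, HBEGF, BTC and ERBB2) and 0 rose (median -0.27). TGFA had 203, 183 and 201 against 452, 394 and 463 (log2 fold change -1.16 ± 0.12 (SE), adjusted p = 1.89e-06). HBEGF had 157, 146 and 146 against 248, 302 and 257 (log2 fold change -0.85 ± 0.13 (SE), adjusted p = 8.09e-05). In this family 3 fell without AAV9-AIPL1co replicate 2 or 3 or AAV9-GFP replicate 1 or 3.

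**Figure D3:**
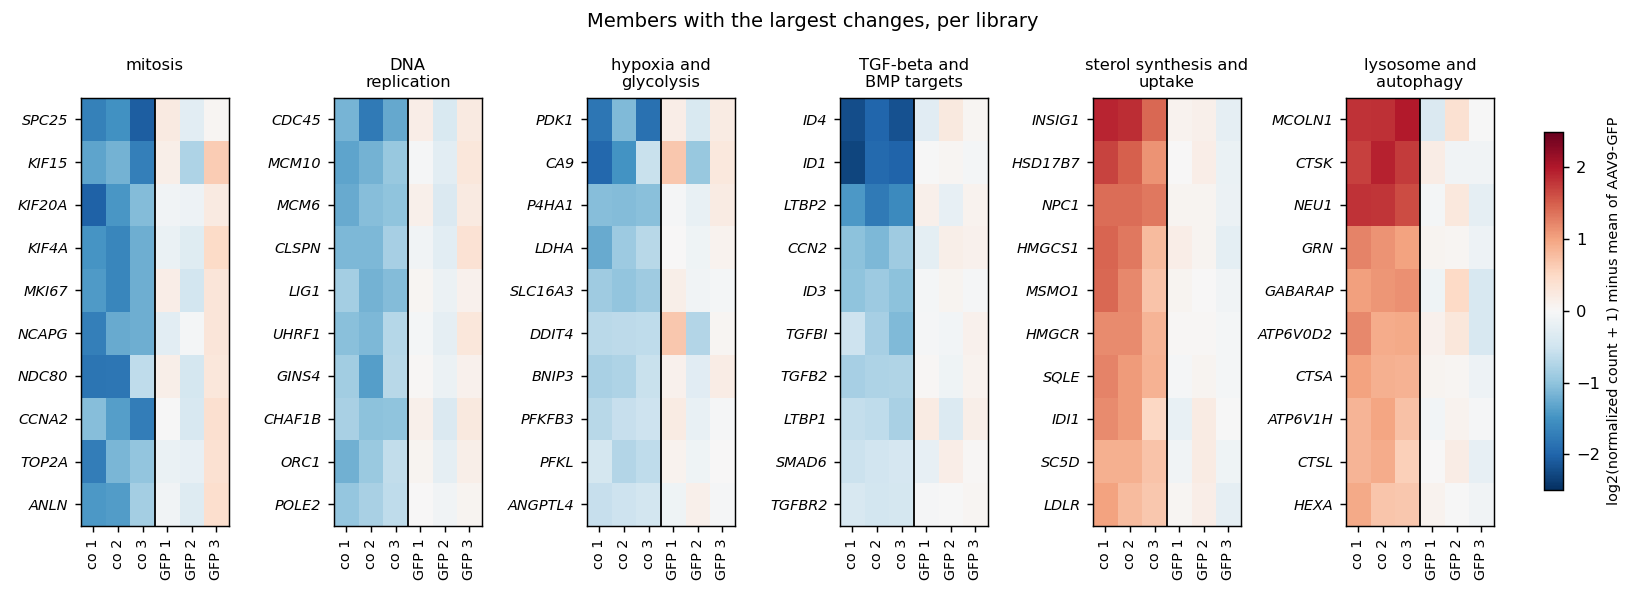
Colour shows log2(normalized count + 1) minus the mean of the 3 AAV9-GFP libraries for 10 of the members with the largest change in each of 6 gene lists (rows, genes; columns, the 6 libraries). Members were picked by the contrast shown, so the split between AAV9-AIPL1co and AAV9-GFP follows from the choice, and what is left to see is how evenly the 3 libraries of each vector carry it.

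Among the sterol genes drawn in the heat map, AAV9-AIPL1co replicate 3 was the lowest of its group in 10 of 10, and AAV9-GFP replicate 3 in 9 of 10. AAV9-GFP replicate 2 was the lowest of its group in 9 of 10 mitosis genes, 10 of 10 replication genes and 9 of 10 hypoxia genes. AAV9-AIPL1co replicate 1 was the lowest of its group in 5 of 10, 5 of 10 and 6 of 10 of these. The file names of AAV9-GFP replicate 2 and AAV9-AIPL1co replicate 1 begin with another date than those of the other 4 libraries. This was taken as another run, though the labels state no run. With this inferred run as a term there were 160 DEGs higher and 56 lower. CA9, a HIF target, had overlapping groups (6.52, 9.51 and 18.99 with AAV9-AIPL1co and 46.3, 14.2 and 34.6 with AAV9-GFP). CA9 (adjusted p = 0.151) missed the threshold with control replicate 1 kept in the fit. CA9 missed the threshold without AAV9-AIPL1co replicate 1 (adjusted p = 0.0776), without AAV9-AIPL1co replicate 2 (adjusted p = 0.0688), without AAV9-GFP replicate 1 (adjusted p = 0.106) and without AAV9-GFP replicate 3 (adjusted p = 0.0525).

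Set beside the native sequence, the genes above showed several patterns. This comparison shares the AAV9-AIPL1co libraries with the one above, and 41.5% of all genes tested passed an adjusted p of 0.05 in it. GAS1 had a mean of 11.1 normalized counts with AAV9-AIPL1wt and 12.7 in the non-transduced control, KCP 209.6 and 126, PNLIPRP3 74.2 and 71.6, and AAV9-AIPL1co had the highest mean of the 4 groups (AAV9-AIPL1co minus AAV9-AIPL1wt 3.32 ± 0.24, adjusted p = 1.44e-08, 2.20 ± 0.21, adjusted p = 3.44e-07, and 2.27 ± 0.23, adjusted p = 7.37e-07). IL1RN, ABCB5 and PPARGC1A stood at 66.2, 139.5 and 70.8 with AAV9-AIPL1wt, between AAV9-GFP and AAV9-AIPL1co (2.60 ± 0.20, adjusted p = 3.08e-08, 1.69 ± 0.16, adjusted p = 4.39e-07, and 1.41 ± 0.17, adjusted p = 5.68e-06). ID1, with 231, and TGM2, with 332, missed the threshold between the AIPL1 vectors (-0.01 ± 0.19, adjusted p = 0.975, and -0.08 ± 0.22, adjusted p = 0.806). RRM2 and CDC45 were lower with AAV9-AIPL1wt than with AAV9-AIPL1co, at 18.9 and 9.73 (2.33 ± 0.32, adjusted p = 1.99e-05, and 2.63 ± 0.31, adjusted p = 4.30e-06). KIF20A and KIF4A, of mitosis, missed it too (-0.13 ± 0.28, adjusted p = 0.746, and 0.05 ± 0.30, adjusted p = 0.907). The sterol genes INSIG1 and HMGCS1 had 605 and 470.3 with AAV9-AIPL1wt, below AAV9-AIPL1co (1.42 ± 0.15, adjusted p = 8.46e-07, and 1.44 ± 0.16, adjusted p = 2.96e-06), and IFI44 was -3.20 ± 0.17 on the log2 scale (adjusted p = 5.00e-10).

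For the tissue itself, 5 of 19 identity genes of retinal pigment epithelium rose (MERTK, RLBP1, BMP4, LHX2 and SOX9) and 5 fell (KRT18, KRT8, RDH5, EZR and TJP1; median 0.14). KRT8 and KRT18, the paired keratins of simple epithelia, had 1921, 1867 and 1888 against 4211, 3293 and 3760.5 (log2 fold change -0.99 ± 0.09 (SE), adjusted p = 3.66e-07) and 1136, 1142 and 1223 against 2476, 2174 and 2449 (log2 fold change -1.02 ± 0.09 (SE), adjusted p = 2.96e-07). Both fell in all 3 libraries, and the genes overlap in part. MERTK, the receptor by which this epithelium engulfs photoreceptor membrane, had 17.7, 18.1 and 22.3 against 3.09, 8.54 and 4.20 (log2 fold change 1.82 ± 0.40 (SE), adjusted p = 0.00189), and RLBP1, the retinaldehyde carrier of the visual cycle, 22.4, 23.8 and 24.6 against 13.4, 7.59 and 10.5 (log2 fold change 1.17 ± 0.30 (SE), adjusted p = 0.0061), at low counts. Without AAV9-AIPL1co replicate 2 or 3 or AAV9-GFP replicate 1 or 3, 2 of these genes rose, and 3 without AAV9-GFP replicate 2, while 3 fell without AAV9-GFP replicate 3. Of neuronal genes 2 of 13 rose (NCAM1 and CRMP1) and 4 fell (ISL1, SYT1, TUBB3 and DPYSL3; median -0.15), 1 rising without AAV9-AIPL1co replicate 2. TUBB3, a neuronal tubulin, had 23.3, 25.7 and 13.4 against 75.1, 50.3 and 53.5 (log2 fold change -1.49 ± 0.26 (SE), adjusted p = 2.58e-04). Both of the photoreceptor markers tested, PDE6B (45.6, 38.99 and 37.98 against 60.7, 41.7 and 53.5, adjusted p = 0.214) and NRL (adjusted p = 0.752), missed the threshold, and their groups overlapped. MERTK (adjusted p = 0.105) missed the threshold with control replicate 1 kept in the fit. WHRN, a scaffold of photoreceptor and hair cell processes whose loss causes Usher syndrome, had 1055, 1069 and 1075 against 330.2, 355 and 371 (log2 fold change 1.60 ± 0.11 (SE), adjusted p = 1.23e-08).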

How the data were processed

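Total RNA of fenretinide-treated ARPE-19 cells was sequenced after poly(A) selection as single 60-base reads. Per the study's methods and the submitters' notes, the authors used STAR 2.7.10b for alignment (GRCh38, Gencode 43, vector entries added) and HTSeq 0.11.1 for counting, and deposited raw counts per gene, with no normalization. STAR gene counts of each sample were deposited too, and the unstranded column served as an alternative. HTSeq summary entries and the 4 vector entries stayed out of library sizes and tests. All gene columns of the series table were mapped to samples by title.

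Groups came from the labels. Genes that passed edgeR's filterByExpr in 11 libraries (13896 genes) were scaled by TMM in edgeR 4.0.16 (R 4.3.3) and fitted with glmQLFit with group as the only term, and AAV9-AIPL1co minus AAV9-GFP was tested with glmQLFTest with Benjamini-Hochberg adjustment. Non-transduced control replicate 1 was left out, as in the study. A DEG had an adjusted p under 0.005 and a fold change of at least 3. SE is the log2 fold change over the square root of F. The fit was tested on simulated data for this comparison, with 13896 genes. At an adjusted p under 0.05, 88 of 100 genes changed 2-fold and 99 of 100 changed 4-fold were found. Of 13696 unchanged genes, 9 were called. Changed genes were drawn above a minimum mean count. The simulated counts used the dispersions of the fit, with no run or replicate structure and far fewer changed genes than were called in the data. These rates need not hold for low counts or for the real libraries.

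Named genes were the 15 DEGs of largest fold change in each direction with a mean of at least 50 normalized counts and groups that did not overlap, the 5 DEGs of highest mean in each direction, the 10 genes the study singled out, and up to 4 called members of each gene list with the largest fold change, or else of the highest mean. Some genes that this rule picks are not reported here. The comparison and the 56 gene lists were chosen with earlier results of these data known, and so were the promoter motifs. Gene coordinates are those of Gencode 44, which holds 62686 of the 62757 gene IDs. Gene counts per library were 6869652 to 8369149 in the 6 libraries; counting intervals are not given, since errors come from the spread between libraries. Alternatives were other scalings, filters, tools (DESeq2 1.42.0, limma 3.58.1), thresholds and sets of libraries. Promoter and microRNA sequences are from RefSeq.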

Additional observations from a re-analysis of the deposited data

Results flagged for a closer look

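The vector entries of the alignment reference stayed out of every comparison between genes. Over the 3 AAV9-AIPL1co libraries the codon-optimized AIPL1 entry had 43 counts, with 11, 13 and 19 in replicates 1 to 3, and it had 0 in the 3 AAV9-GFP libraries. A GFP entry had 7 counts over the 3 AAV9-GFP libraries and 0 in the AAV9-AIPL1co libraries. Scaled to the gene counts of the 3 libraries (CPM), these were 1.84 and 0.305. The other GFP entry and the native AIPL1 entry had 0 counts in all 6 libraries. They were listed because they are signals outside the tested genes, above the level in the other vector's libraries. The entries are of different sequences, so their counts do not compare the transgenes.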

How the results depend on the processing

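Reversals were looked for only among the genes picked by the rule for named genes. None of those that passed the threshold in either fit changed direction under an alternative that tested it. Keeping non-transduced control replicate 1 in the fit (all 12 libraries) left 80 DEGs higher and 26 lower, with 105 of the 220 shared, and 1205 genes higher and 957 lower at an adjusted p under 0.05. Members that passed were then 9 interferon-stimulated, 3 DNA replication, 21 mitosis, 3 recombination, 4 hypoxia, 8 chaperone and 7 contractile genes that fell, and 7 sterol and 8 immediate early or ERK feedback genes that rose. The glmTreat test against a 3-fold change gave 5 higher and 0 lower. The libraries of the first run alone, as inferred from file names, gave 184 DEGs higher and 102 lower. Of these 64.3% were higher, against 75% with both inferred runs, and the cause was not tested.

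With each library of both vectors left out in turn, DEGs higher numbered 119 to 165 and DEGs lower 41 to 75, and genes at an adjusted p under 0.05 1574 to 1939 higher and 1391 to 1865 lower. Members that fell were 9 to 15 interferon-stimulated, 17 to 28 DNA replication, 24 to 40 mitosis, 6 to 15 recombination, 12 to 15 hypoxia, 10 to 13 chaperone, 9 to 12 TGF-β and BMP, 12 to 14 YAP and TEAD and 11 to 13 contractile genes. Members that rose were 17 to 21 sterol, 24 to 29 lysosome, 14 to 16 immediate early or ERK feedback and 9 to 10 ceramide genes.

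Replicate numbers are shared across groups. The deviations of same-numbered libraries correlated at 0.237, 0.041 and 0.145, and those of libraries with different numbers at -0.214 to 0.087. The labels state no pairing and the main fit used none. Whether same-numbered libraries had a common origin was not tested. With a replicate block there were 168 DEGs higher and 58 lower. At an adjusted p under 0.05 there were then 2425 genes higher and 2346 lower, against 2239 and 2061 without the block. Other settings kept the counts of DEGs within 1.5 times: DESeq2 gave 132 and 51, limma voom 164 and 57, no filter 205 and 80, the 6 libraries alone 159 and 52, and other scalings 152 to 162 higher and 56 to 59 lower. Low counts limit the values of FOS, EGR2, MERTK and MYL4.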

Other observations

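Enzymes that handle amino sugars were among the DEGs that rose. UAP1L1, a relative of the enzyme that makes UDP-N-acetylglucosamine, had 697, 617 and 621 normalized counts with AAV9-AIPL1co and 143, 161 and 133 with AAV9-GFP (log2 fold change 2.14 ± 0.16 (SE), adjusted p = 4.37e-08). AMDHD2, a deacetylase that recycles N-acetylglucosamine, had 606, 600.1 and 603 against 185, 175 and 146 (log2 fold change 1.84 ± 0.16 (SE), adjusted p = 1.43e-07), and GNPDA1, which returns glucosamine phosphate to glycolysis, 2694, 2686 and 2689 against 889.9, 881 and 792 (log2 fold change 1.65 ± 0.10 (SE), adjusted p = 8.02e-09). HKDC1, a hexokinase, had 2734, 2939.6 and 2770.1 against 986, 1046 and 769 (log2 fold change 1.59 ± 0.13 (SE), adjusted p = 1.17e-07). Of 16 genes of the hexosamine pathway 4 rose and 1 fell (UAP1; median 0.06, beside -0.001 for all genes tested). Of 26 ceramide and sphingolipid enzymes 11 rose and 3 fell (SGPP2, CERS6 and SMPD1; median 0.17). CERS1, a ceramide synthase, had 51.2, 57.1 and 69.3 against 14.4, 17.1 and 18.9 (log2 fold change 1.80 ± 0.26 (SE), adjusted p = 4.59e-05), and SPHK1, which makes sphingosine phosphate, 2582, 2707 and 2747 against 940.3, 1527 and 1031 (log2 fold change 1.20 ± 0.14 (SE), adjusted p = 3.97e-06).

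FZD8 and FZD4, receptors of Wnt ligands, rose and the ligand WNT2B fell. FZD8 had 684, 719 and 884 against 214, 219 and 183 (log2 fold change 1.89 ± 0.14 (SE), adjusted p = 4.00e-08), FZD4 657, 771 and 768 against 205, 200.2 and 258 (log2 fold change 1.73 ± 0.15 (SE), adjusted p = 1.75e-07), and WNT2B 55.9, 53.3 and 68.1 against 174, 152 and 184 (log2 fold change -1.53 ± 0.15 (SE), adjusted p = 5.10e-07). Of the 25 Wnt genes tested 6 rose (24%) and 4 fell (16%, WNT2B, WNT5A, LRP5 and TCF7L2), beside 16.1% and 14.8% of all genes tested. Without AAV9-AIPL1co replicate 2 or AAV9-GFP replicate 1, 2 of them fell. In the circadian clock 8 of 18 rose (44.4%) and 2 fell (11.1%, PER2 and HLF), with a median of 0.19. The number that fell was 4 without AAV9-AIPL1co replicate 1, with some other scalings, with no filter and with the replicate block. It was also 4 in the inferred first run alone and in the 6 libraries alone, and 1 with control replicate 1 kept. PER2, a clock repressor, had 15.8, 6.66 and 10.1 against 54.5, 43.6 and 58.8 (log2 fold change -2.24 ± 0.29 (SE), adjusted p = 1.19e-05), whereas its relative PER1 had 105, 127 and 115 against 56.6, 74.95 and 52.5 (log2 fold change 0.91 ± 0.18 (SE), adjusted p = 9.21e-04). MT1X, a metallothionein that binds zinc, had 281, 292 and 312 against 102, 143 and 92.3 (log2 fold change 1.38 ± 0.21 (SE), adjusted p = 7.41e-05), and SLC30A3, a zinc transporter, 15.8, 16.2 and 15.6 against 3.09, 1.90 and 4.20 (log2 fold change 2.35 ± 0.47 (SE), adjusted p = 0.00103). MAF, a leucine zipper transcription factor, had 224, 199 and 189.9 against 38.1, 55.98 and 56.7 (log2 fold change 2.02 ± 0.23 (SE), adjusted p = 3.65e-06), and UCN, the stress peptide urocortin, 101, 95.1 and 99.4 against 29.8, 34.2 and 25.2 (log2 fold change 1.72 ± 0.21 (SE), adjusted p = 8.30e-06). Of NRF2 targets, the antioxidant set, 8 of 28 fell and 4 rose (HMOX1, AKR1B1, FTL and FTH1); HMOX1, heme oxygenase, rose (0.94 ± 0.21) and AKR1B10, an aldo-keto reductase, fell (-1.58 ± 0.30). Metallothioneins have near-identical copies, so the reads of MT1X are uncertain.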
